A study of Mus musculus with 16 samples.

Results

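Embryoid bodies homozygous for a null allele of Taf4a at the last sampled stage of a neuronal differentiation protocol (KO EB8) were compared, over all genes, with wild-type embryoid bodies sampled earlier in that protocol, after their first day with retinoic acid (WT EB5). The 2 groups were taken from the labels and held 2 libraries each, 4 of the 16 libraries of the series. Of 27807 genes in the table, 16124 entered the test, those that averaged 10 normalised counts or more over all libraries. The question was which genes of KO EB8 would be left over if the KO embryoid bodies had only been late.

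All libraries came from mouse embryonic stem (ES) cells kept on inactivated embryonic fibroblast feeders with LIF, and from floating aggregates made from them. WT cells were labelled Taf4+/+ and KO cells Taf4-/- in a field and Taf4a-/- in the titles, with 2 independent lines of each genotype in the series design, and no label ties a library to a line. The other groups, also of 2 libraries, were WT and KO ES cells, aggregates before retinoic acid (EB4), KO EB5 and WT EB8. EB8 followed 4 days of retinoic acid and was labelled neural precursor cells. The deletion is constitutive in the KO lines, which had lived without the intact gene as ES cells. By the study's methods feeders were removed before aggregation. An aggregate can hold several cell types, and in such bulk libraries fewer cells of a type and less RNA per cell cannot be told apart. A p-value covers the spread between the 2 libraries of a group, pooled over the 8 groups of the series. Separate cultures are not given in the labels for these libraries.

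TFIID brings the TATA-binding protein to core promoters together with its associated factors, among them TAF4A and its paralogue TAF4B. In differentiating ES cells the pluripotency factors are shut off first, an epiblast-type programme passes, and retinoic acid then binds nuclear receptors that switch on Hox genes and neural patterning factors. Progenitor factors such as PAX6 and DBX1 precede proneural and neuronal genes in this order.

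Depth in the 4 compared libraries was 22442118 to 27685306 reads in genes, recovered from the deposited values. Taf4a had 2341 and 1973 normalised counts in the KO EB8 libraries and 1778 and 1756 in WT EB5, and as this value sums the whole gene, including exons that the null allele keeps, it does not check the genotype labels. The expression of whole chromosomes set some libraries apart. Levels given are medians over the genes of a chromosome, relative to each gene's mean over the 16 libraries on the log2 scale. Chromosome 8 was at 0.40 in WT EB5 replicate 1 and -0.11 in replicate 2. Chromosome 11 was at 0.28 in KO EB8 replicate 1 and -0.06 in replicate 2. Chromosome X was at 0.42 in KO EB8 replicate 2 and -0.24 in replicate 1. The 6 tested chromosome Y genes were at 1.30 and 2.53 in WT EB5 replicates 1 and 2 and at -0.39 and -2.27 in those of KO EB8. WT ES, a stage of the WT course used below, differed from the later WT libraries of the same replicate number. Chromosome 8 was at -0.15 in WT ES replicate 1 and at 0.40 to 0.41 in WT EB4, EB5 and EB8 replicate 1. Chromosomes X and Y were at 0.47 and -2.03 in WT ES replicate 2. In the later WT replicate 2 libraries they were at -0.25 to -0.16 and 2.30 to 2.65. What set WT ES apart was not tested. Genes described here are named as lying on chromosome 8, 11 or X where they do.

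WT EB5 was the WT stage that KO EB8 resembled most across the transcriptome. The median absolute log2 difference over the 16124 genes was 0.419 from WT EB5, 0.503 from WT EB8, 0.511 from WT EB4 and 0.589 from WT ES. Each KO EB8 library alone gave the same nearest stage, at 0.444 and 0.457. The difference between replicates, by the same measure on single libraries, was 0.327 in WT EB5 and 0.317 in KO EB8, and 0.246 to 0.437 over all 8 groups, with the highest value in WT ES and the next at 0.346. Since the pair of stages had been picked with such values known, this ranking is a description.

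**Figure D1:**
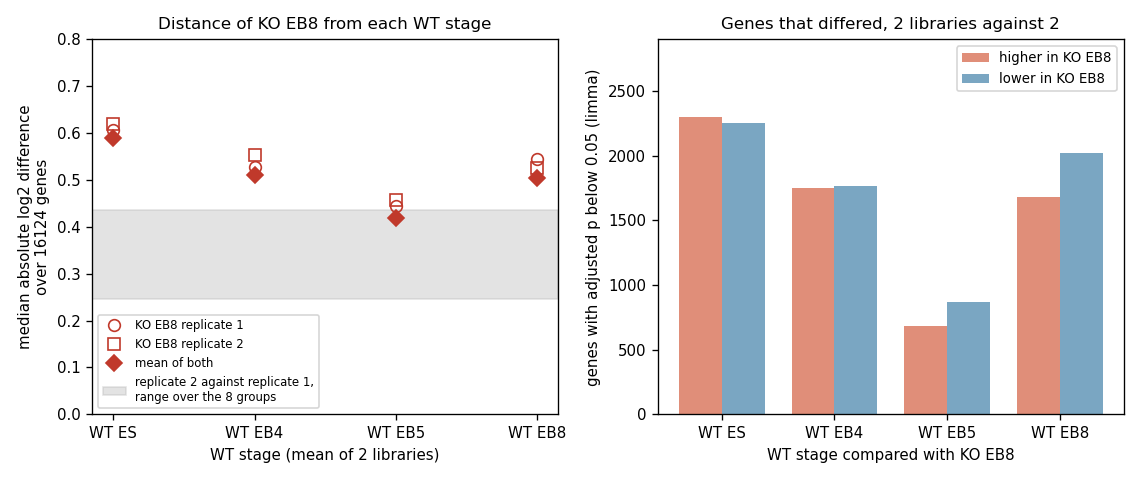
Left, the median absolute log2 difference of KO EB8 from each WT stage over 16124 genes for each KO EB8 library (open symbols) and their mean (diamonds), with the range of replicate-to-replicate differences in grey, and right, the number of genes past an adjusted p of 0.05 in each direction. WT EB5 gave the smallest distance (0.419) and the fewest genes (681 higher, 866 lower).

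KO EB8 was nevertheless not WT EB5. The limma test called 1547 of 16124 genes at a Benjamini-Hochberg adjusted p below 0.05 (9.59%), with 681 higher in KO EB8 (4.22%) and 866 lower (5.37%). An unadjusted p below 0.05 was found for 4216 genes. The same fit gave 4550 genes against WT ES (28.2%), 3511 against WT EB4 (21.8%) and 3697 against WT EB8 (22.9%), all of which use the same KO EB8 libraries. The count rested on all 4 libraries, with 518 genes without WT EB5 replicate 1, 488 without replicate 2, 584 without KO EB8 replicate 1 and 573 without replicate 2. Chromosome 11 held 97 of the higher and 32 of the lower genes, chromosome 8 16 and 45, and chromosome X 38 and 29, and with these chromosomes and Y left out 584 higher and 823 lower genes were called.

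Most of the called genes, as most of all genes, did not lie between the WT EB5 mean and that of WT EB4 or WT EB8. The KO EB8 mean lay between the WT EB5 and WT EB8 means only for 64 of the 681 higher genes (9.40%), between those of WT EB4 and WT EB5 only for 15 (2.20%), and in both intervals for 2. It lay beyond the means of all 4 WT stages for 433 of them (63.6%). Of the 866 lower genes, 571 lay beyond all 4 means (65.9%), 55 between WT EB5 and WT EB8 only (6.35%) and 65 between WT EB4 and WT EB5 only (7.51%), with 4 in both. Among all 16124 genes the share beyond the 4 means was 38.5%. Between WT EB5 and WT EB8 only lay 21.8% of all genes, between WT EB4 and WT EB5 only 15.0%, and in both 5.18%. The rest lay within the 4 means only through WT ES, 24.5% of the higher, 19.7% of the lower and 19.5% of all genes. Genes called different from a given stage are more often beyond all of them by construction, and these shares are given without a test.

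The genes that a WT stage marks most clearly were spread over all stages in KO EB8. For 4001 genes the 4 WT means spanned at least 2 on the log2 scale. The nearest WT mean to KO EB8 was that of ES for 1193 genes (29.8%), EB4 for 862 (21.5%), EB5 for 1162 (29.0%) and EB8 for 784 (19.6%). In KO ES the corresponding share nearest to WT ES was 70.0%. In KO EB5 the shares nearest to WT ES, EB4, EB5 and EB8 were 36.4, 28.3, 25.5 and 9.77%. A spread over the stages was thus not particular to KO EB8. Both KO EB8 libraries gave the same stage for 2338 genes (58.4%), so that the assignment of a single gene is uncertain. The counts for some gene lists are given as a description. Of 23 pluripotency genes with such a span, 10 lay nearest to ES and 8 to EB4, and of 16 germline genes 14 lay nearest to ES. Of 23 Hox genes, 15 lay nearest to EB5 and 8 to EB8, with no gene nearest to an earlier stage. The nearest WT mean need not be close, as a KO EB8 level can lie beyond every WT mean.

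**Figure D2:**
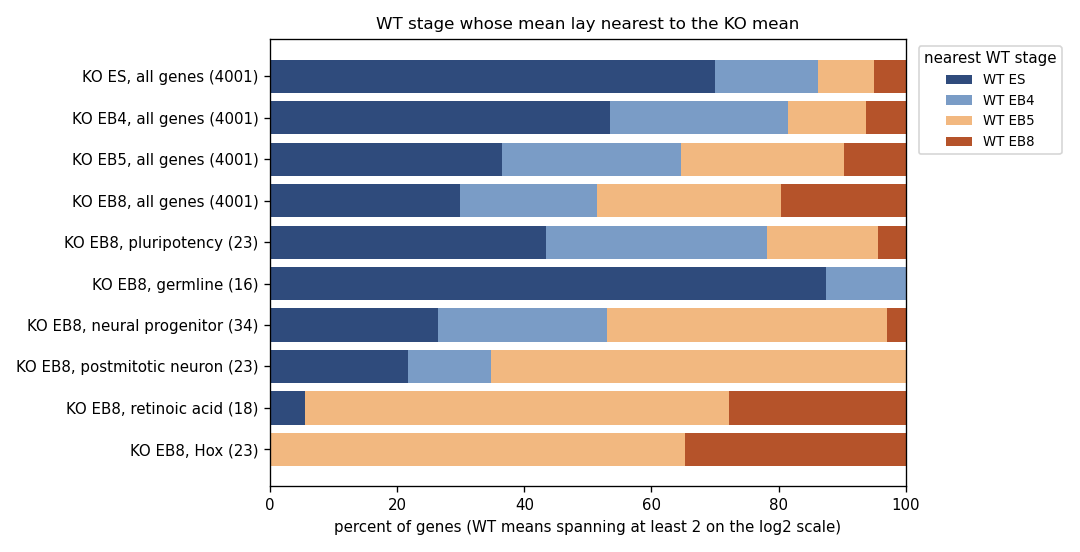
Share of genes, in percent, whose KO mean lay nearest to the mean of each WT stage, for genes whose WT means spanned at least 2 on the log2 scale, with the number of genes in brackets. Across all 4001 genes KO EB8 was divided among the stages (29.8, 21.5, 29.0 and 19.6%). Of 16 germline genes 14 lay nearest to ES, and 23 of 23 Hox genes lay nearest to EB5 or EB8.

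Of 24 tested genes of core and naive pluripotency, 9 were higher in KO EB8 than in WT EB5 and none was lower, 37.5% against 9.59% of all genes, and the median difference was 1.61 on the log2 scale against -0.00448 over all genes. Nanog, a homeobox factor of the naive state, had 7989 and 8408 normalised counts in KO EB8, 1466 and 2148 in WT EB5, against 118 and 313 in WT EB8. Both KO EB8 libraries exceeded both of WT EB5, and the difference was 2.21 on the log2 scale (SE 0.55, adjusted p = 0.0274). Nr5a2, a nuclear receptor that drives Pou5f1, had 831 and 651 in KO EB8 and 200.4 and 281 in WT EB5 (1.63, SE 0.25, adjusted p = 0.00385). Esrrb, an orphan receptor that sustains self-renewal, had 5511 and 5325 in KO EB8 and 1637 and 1501 in WT EB5 (1.79, SE 0.33, adjusted p = 0.00781). The groups overlapped for neither gene.

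Tfcp2l1, a naive-state repressor and activator, differed by 2.09 (SE 0.31, adjusted p = 0.00309), with a KO EB8 level near that of WT ES (5403 and 7489 against 5861 and 6661). Dppa2, a chromatin-bound factor of early embryos, had 1688 and 3055 in KO EB8 and 342 and 154 in WT EB5 (3.30, SE 0.59, adjusted p = 0.00669). The remaining members called were Tbx3, Fbxo15, Dppa5a and Nr0b1, with differences of 2.02, 1.85, 2.08 and 1.66, the last on chromosome X. Pou5f1 and Sox2 did not pass the test, unlike Nanog. Pou5f1 had 3218 and 3690.0 in KO EB8 and 4186 and 1936 in WT EB5, which overlap (0.28, 95% interval -0.55 to 1.10, adjusted p = 0.688, and -0.28 without WT EB5 replicate 2), and Sox2, shared with neural progenitors, had 6517 and 3904 in KO EB8 and 7902 and 6959.9 in WT EB5 (-0.56, 95% interval -1.08 to -0.04, adjusted p = 0.162). Without WT EB5 replicate 1, WT EB5 replicate 2, KO EB8 replicate 1 and KO EB8 replicate 2 in turn, 4, 2, 5 and 3 of the 9 genes stayed past the threshold, and Nr5a2 and Tfcp2l1 did so each time. The summed level of the 24 genes was 59177.5 and 58639 in KO EB8, 37645 and 29463 in WT EB5, against 9131 and 11232.5 in WT EB8.

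In a list of genes that germ cells use and ES cells partly express, 4 of 20 tested members were higher and none lower, 20% against 9.59% of all genes (median 1.74). Tex19.1, which keeps retrotransposons in check, had 3283 and 2741 normalised counts in KO EB8 and 195 and 244 in WT EB5 (3.78, SE 0.38, adjusted p = 0.000575, on chromosome 11). Stk31, a testis kinase, had 738 and 720.1 in KO EB8 and 154 and 50.5 in WT EB5 (3.03, SE 0.50, adjusted p = 0.00489). Dazl, an RNA-binding protein of germ cells, had 982 and 747 in KO EB8 and 96.9 and 49.4 in WT EB5 (3.61, SE 0.96, adjusted p = 0.0349), and in WT ES the libraries had 111 and 1582, a spread larger than the difference between the groups. Asz1, a piRNA pathway gene, was at the floor of 3 reads in both WT EB5 libraries and at least 14.2-fold higher in KO EB8 (adjusted p = 0.0488), a call lost with edgeR. Stk31 and Tex19.1 stayed past the threshold when any of the 4 libraries was left out, and 2 of the 4 genes did so in each case. The summed level of the list was 14385.8 and 13865 in KO EB8 and 8819.9 and 6190.2 in WT EB5.

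Of 13 tested genes of the formative and primed epiblast, 3 were lower and none higher, 23.1% against 9.59% of all genes (median -0.93). Otx2, a homeobox factor of epiblast and anterior neural plate, had 111 and 132 normalised counts in KO EB8, 1273 and 754 in WT EB5, against 44.1 and 178 in WT EB8 (-3.01 from WT EB5, SE 0.53, adjusted p = 0.00629). Its KO EB8 values lay between those of the WT EB8 libraries. Zic2, a zinc finger factor of epiblast and neural plate, also overlapped WT EB8, with 1008 and 513 in KO EB8, 3531 and 1767 in WT EB5, against 576 and 982 in WT EB8 (-1.79 from WT EB5, adjusted p = 0.0436). Sall2, a further zinc finger factor, had 977 and 1603 in KO EB8 against 5048 and 6399 in WT EB5, against 1317 and 608 in WT ES (-2.18, adjusted p = 0.0104). Fgf5, the classic epiblast ligand, peaked at EB4 in WT (3708 and 4971) and had 124 and 138 in KO EB8 and 163 and 266 in WT EB5 (adjusted p = 0.408). Of the 3 genes, 1, 1, 1 and 2 stayed past the threshold without WT EB5 replicates 1 and 2 and KO EB8 replicates 1 and 2, and Zic2 also missed it with edgeR.

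**Figure D3:**
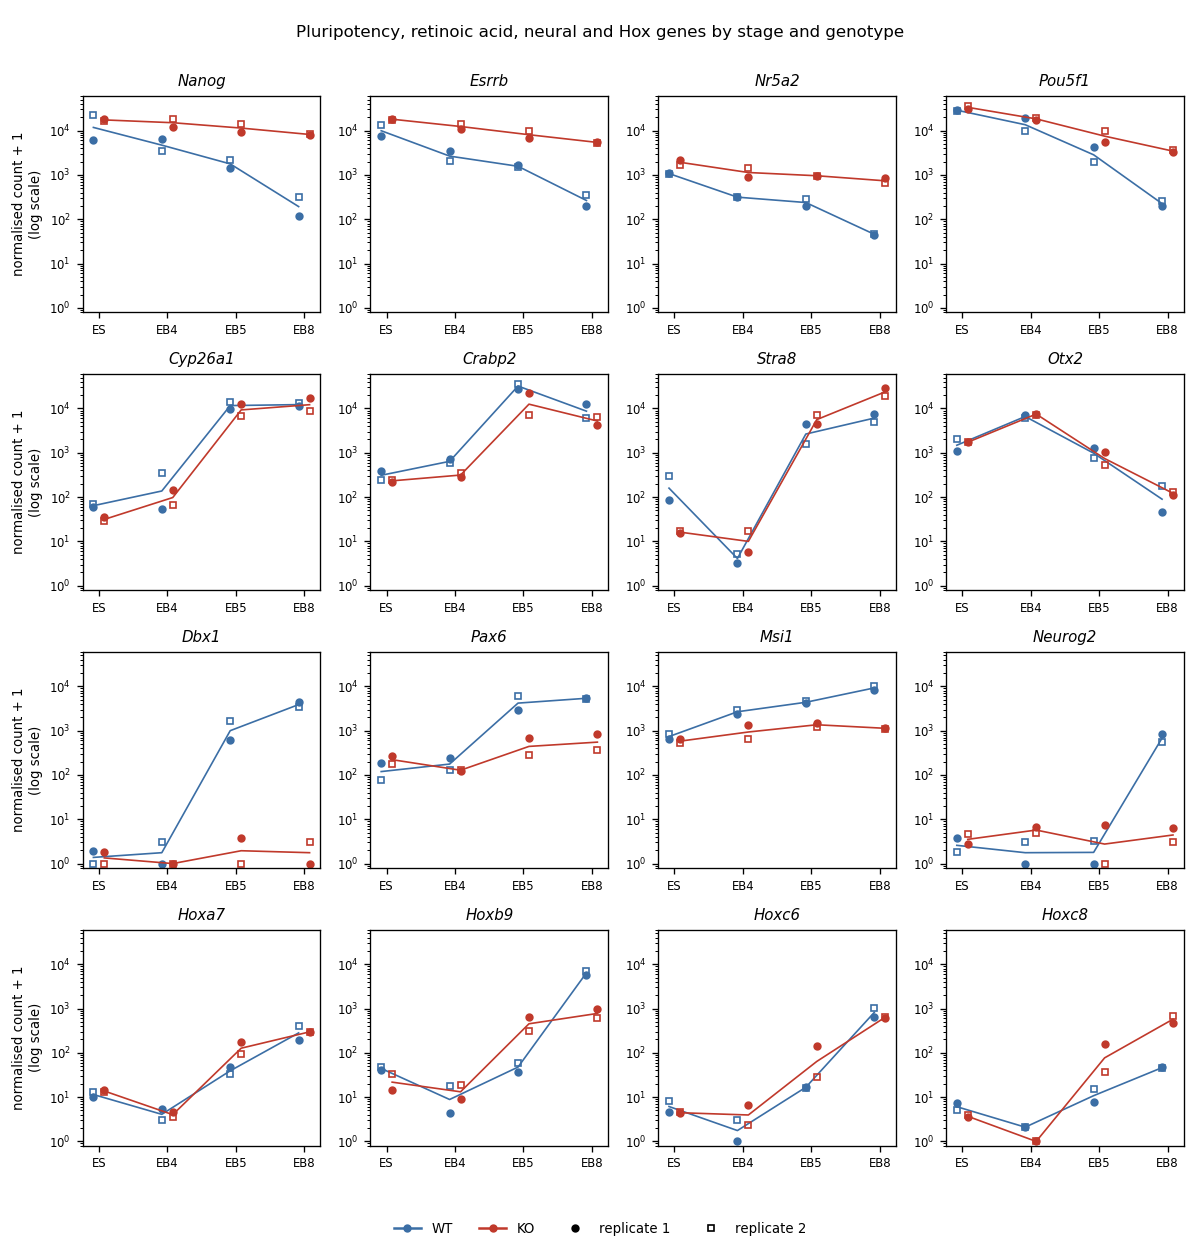
Normalised counts plus 1, on a log axis, of 16 genes in every library by stage (WT blue, KO red, replicate 1 filled, replicate 2 open, lines through the geometric means). Nanog, Esrrb and Nr5a2 in KO EB8 lay above WT EB5, Otx2 and Hoxa7 overlapped WT EB8, Dbx1 stayed near 0 and Hoxc8 exceeded WT EB8 (482.2 and 680.7 against 47.3 and 43.4).

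Of 19 tested genes of retinoic acid response and metabolism, 1 was higher and 1 lower, 10.5% against 9.59% of all genes (median -0.17). Cyp26a1, the retinoic acid hydroxylase that the signal induces most directly, had 16825 and 8829 normalised counts in KO EB8, 9699 and 13968 in WT EB5 and 53.7 and 344 before the signal. The KO EB8 values lay on either side of those of WT EB5, with a difference of 0.07 (95% interval -1.39 to 1.53, adjusted p = 0.964), and the sign turned without WT EB5 replicate 1 (-0.20) and without KO EB8 replicate 1 (-0.40). The receptor gene Rarb had 1461 and 1487 in KO EB8 and 1689 and 2819 in WT EB5 (-0.57, 95% interval -1.72 to 0.59), the reductase Dhrs3 1486 and 1442 in KO EB8 and 1674 and 1619.7 in WT EB5 (-0.17, 95% interval -0.92 to 0.58), and neither passed the test (adjusted p = 0.534 and 0.796).

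The exceptions within this list went in opposite directions. Crabp2, which delivers retinoic acid to its receptors, had 4185 and 6490.5 normalised counts in KO EB8, 28139 and 36589.7 in WT EB5, against 12556 and 6037 in WT EB8 (-2.62 from WT EB5, SE 0.47, adjusted p = 0.00669). Stra8, a retinoic acid target known from the onset of meiosis, had 29638 and 19045 in KO EB8, 4534 and 1549.5 in WT EB5, against 7624 and 4834 in WT EB8 (3.16, SE 0.67, adjusted p = 0.0144). Both KO EB8 values of Stra8 were above all WT values, but its difference from WT EB8 was 1.97 with an adjusted p of 0.0521. Cyp26b1, another hydroxylase, had 4198 and 4334 in KO EB8, between 481 and 1216 in WT EB5, against 18735 and 38733 in WT EB8 (adjusted p = 0.0669 against WT EB5). The calls of Crabp2 and Stra8 were both lost without WT EB5 replicate 2 or without KO EB8 replicate 1.

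Hox genes at the 3′ end of a cluster are the first that retinoic acid switches on, and members nearer the 5′ end follow. Of 23 tested Hox genes, 6 were higher and 1 lower, 30.4% against 9.59% of all genes, while the median was 0.10. The genes higher were Hoxa7, Hoxb7, Hoxb9, Hoxc6, Hoxc8 and Hoxc9. Hoxc6 had 626 and 646 normalised counts in KO EB8, 16.0 and 15.4 in WT EB5, against 651 and 1018 in WT EB8 (5.25, SE 0.79, adjusted p = 0.00309). Hoxa7 had 292 and 300.4 in KO EB8, 46.1 and 31.8 in WT EB5, against 197 and 398 in WT EB8 (2.92, SE 0.50, adjusted p = 0.00599). Neither of these genes passed the test against WT EB8 (adjusted p = 0.784 and 0.931).

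Hoxc8 and Hoxc9 were also higher than in WT EB8. Hoxc8 had 482 and 681 normalised counts in KO EB8, 6.6 and 14.3 in WT EB5, against 47.3 and 43.4 in WT EB8, and the KO EB8 mean was 12.8-fold the highest WT stage mean. The difference from WT EB5 was 5.74 (SE 0.66, adjusted p = 0.000953) and that from WT EB8 3.63 (adjusted p = 0.00225). Hoxc9 had 343 and 323 in KO EB8, 2.8 and 13.2 in WT EB5, against 32.6 and 26.5 in WT EB8 (5.50 from WT EB5, adjusted p = 0.00333, and 3.46 from WT EB8, adjusted p = 0.011). Over the whole WT course at once neither passed (adjusted p = 0.0847 and 0.213). The Hoxb genes, on chromosome 11, were lower than in WT EB8 where they passed. Hoxb9 had 997 and 599.7 in KO EB8, 36.7 and 59.3 in WT EB5, against 5724 and 7120.3 in WT EB8 (4.02 from WT EB5, adjusted p = 0.00495, and -3.04 from WT EB8, adjusted p = 0.00651). Hoxb8 had 429 and 178 in KO EB8, 79.0 and 39.5 in WT EB5, against 3581 and 4993 in WT EB8 (adjusted p = 0.105 against WT EB5 and 0.00567 against WT EB8), and Hoxb6 1144 and 703 in KO EB8 and 4241 and 5902 in WT EB8 (adjusted p = 0.0219 against WT EB8). Hoxb1, at the 3′ end, had 4478 and 3351 in KO EB8 and 2096 and 1916 in WT EB5 (adjusted p = 0.508). Each Hoxb gene named here was higher in KO EB8 replicate 1, the library with the higher chromosome 11 level, than in replicate 2. Hoxa7, Hoxb9, Hoxc6, Hoxc8 and Hoxc9 stayed past the threshold when any of the 4 libraries was left out, and Hoxb7 lost the call each time.

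Of 35 tested neural progenitor factors and glial-type markers, 11 were lower in KO EB8 and 1 higher, 34.3% against 9.59% of all genes, with a median of -1.05 (-0.83 with genes of a group at 3 reads or fewer set to that floor). Dbx1, a homeobox factor of intermediate spinal progenitors, had 0 and 2.1 normalised counts in KO EB8, 612 and 1631 in WT EB5, against 4360.1 and 3448 in WT EB8, and was at least 353-fold lower in KO EB8 than in WT EB5 (adjusted p = 0.000399). Neither KO EB5 library (2.8 and 0) held more than 3 reads of it. Foxb1, a forkhead factor of the neural tube, had 1.1 and 3.2 in KO EB8 and 163 and 254 in WT EB5, at least 65.5-fold lower (adjusted p = 0.00327). Hes3, a repressor of the Hes family in neural progenitors, was at 0 in both KO EB8 libraries and had 95 and 26.4 in WT EB5, at least 19-fold lower (adjusted p = 0.00668).

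Pax6, a paired-box factor of dorsal and intermediate progenitors, had 838 and 361 normalised counts in KO EB8, 2855 and 6135 in WT EB5, against 234 and 131 in WT EB4 (-2.93 from WT EB5, SE 0.57, adjusted p = 0.00961). Msi1, an RNA-binding protein of neural stem cells, had 1148 and 1111 in KO EB8 and 4113 and 4641 in WT EB5 (-1.95, SE 0.29, adjusted p = 0.00301). Sox3, a SoxB1 factor on chromosome X, had 155 and 118 in KO EB8 and 1059 and 849 in WT EB5 (-2.80, SE 0.45, adjusted p = 0.00449). In each of these the KO EB8 and WT EB5 libraries were apart. Msx3, Pax3, Irx5, Irx3 and Zic5 were lower, with differences of -3.67, -2.80, -2.47, -2.39 and -1.34, the Irx genes being on chromosome 8 and the call of Zic5 lost with edgeR. Nes, the intermediate filament of neural stem cells, had 2831 and 3312 in KO EB8 and 9156 and 13298 in WT EB5, with an adjusted p of 0.0619. Pou3f3, a POU factor that WT cells switched on at EB8 (2289 and 2234), was the member higher, with 84.4 and 42.6 in KO EB8 and 12.2 and 19.8 in WT EB5 (adjusted p = 0.0319). The proneural gene Neurog2 had 5.3 and 2.1 in KO EB8 against 831 and 553 in WT EB8. The label of neural precursor cells was therefore not borne out by these markers in KO EB8, and the group is named by genotype and stage only. Dbx1, Foxb1, Msi1 and Sox3 stayed past the threshold when any of the 4 libraries was left out, and 7, 5, 10 and 6 of the 12 genes did so without WT EB5 replicates 1 and 2 and KO EB8 replicates 1 and 2.

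**Figure D4:**
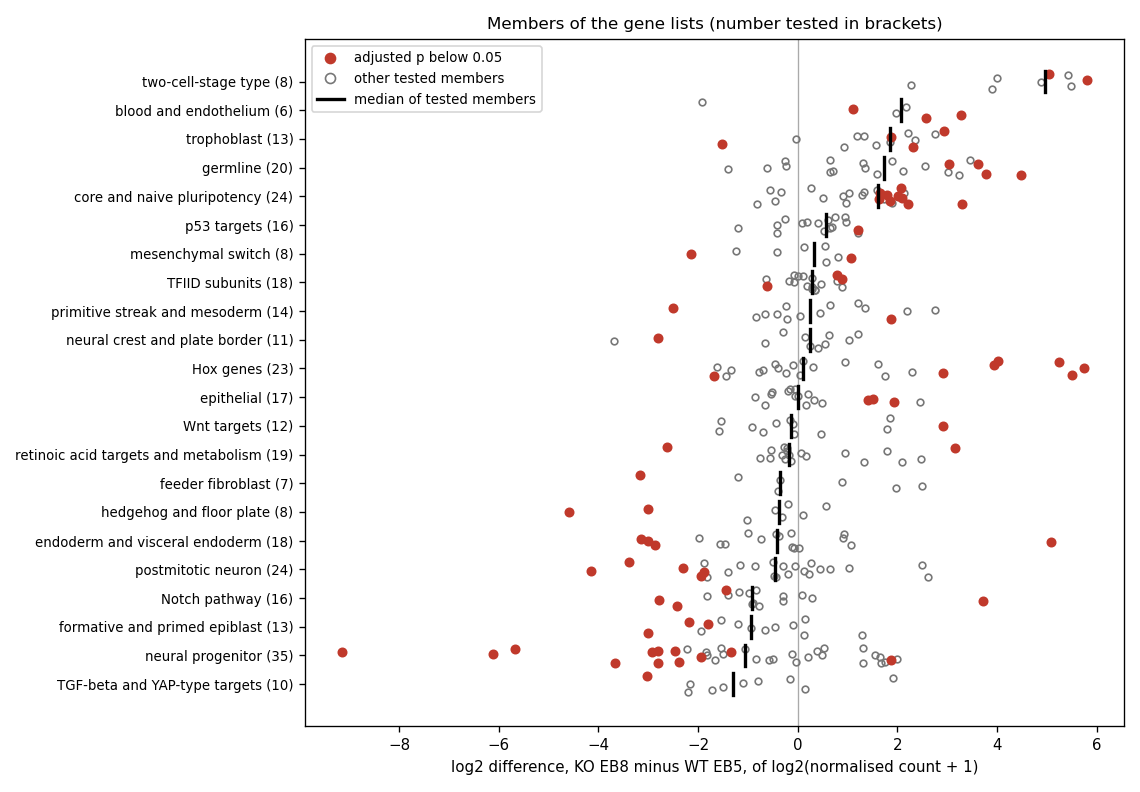
Log2 difference between KO EB8 and WT EB5 of every tested member of the 22 gene lists (filled red, adjusted p below 0.05, open grey, other members, black bar, median of the list), with lists ordered by median. Medians ran from -1.30 (TGF-beta and YAP-type targets) and -1.05 (neural progenitor) through 1.61 (pluripotency), 1.74 (germline), 1.84 (trophoblast) and 2.08 (blood and endothelium) to 4.96 (2-cell-stage type), and the Hox list had a median of 0.10 with 6 members between 2.92 and 5.74.

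Of 24 tested genes of postmitotic neurons, 5 were lower and none higher, 20.8% against 9.59% of all genes (median -0.46). Stmn3, a microtubule regulator of neurons, had 9.5 and 11.7 normalised counts in KO EB8, 253 and 165 in WT EB5, against 85.6 and 48.6 in WT ES (-4.15 from WT EB5, SE 0.54, adjusted p = 0.00158). Gap43, a growth cone protein, had 53.8 and 215 in KO EB8 and 1417 and 915 in WT EB5 (-3.39, SE 0.53, adjusted p = 0.00382). In both genes the KO EB8 values were below those of every WT library. Ina, Snap25 and Elavl4 differed by -2.31, -1.94 and -1.88 (adjusted p = 0.0167, 0.0393 and 0.015). Dcx, a marker of young neurons on chromosome X, had 61.2 and 88.4 in KO EB8 against 10.4 and 12.1 in WT EB5 (adjusted p = 0.0767) and 4946 and 6972 in WT EB8. The summed level of the list was 4195 and 4012 in KO EB8, 8950 and 6428 in WT EB5, against 44992 and 58830 in WT EB8. In ES cells this sum was above that of WT EB5, with 14768 and 12434 in WT ES and 16603 and 13845 in KO ES. It therefore does not measure neurons alone. Without WT EB5 replicates 1 and 2 and KO EB8 replicates 1 and 2, 2, 2, 4 and 2 of the 5 genes stayed past the threshold, and Gap43 and Stmn3 did so each time.

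Through the Notch pathway neighbouring progenitors restrain each other from becoming neurons. Of its 16 tested genes, 3 were lower and 1 higher, 25% against 9.59% of all genes (median -0.91). The ligand gene Dll1 had 144 and 130.0 normalised counts in KO EB8, 782 and 706 in WT EB5, against 226 and 172 in WT ES (-2.43 from WT EB5, SE 0.38, adjusted p = 0.0041). Lfng, a glycosyltransferase that tunes the receptors, had 184 and 178 in KO EB8 and 1191 and 1298 in WT EB5 (-2.78, SE 0.40, adjusted p = 0.00251). The receptor gene Notch3 had 2375 and 2308 in KO EB8 and 6914 and 5916 in WT EB5 (-1.45, SE 0.17, adjusted p = 0.000986), and 2109 and 2491 already in KO ES against 3810.0 and 4065 in WT ES. These 3 genes stayed past the threshold when any of the 4 libraries was left out. The member higher was Dll4, a ligand of endothelial cells, with 77.0 and 339 in KO EB8 and 27.3 and 4.4 in WT EB5 (adjusted p = 0.0297), a call lost without WT EB5 replicate 2 and without KO EB8 replicate 2.

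In the list of hedgehog and floor plate genes 2 of 8 were lower, 25% against 9.59% of all genes. These were Spon1, a floor plate matrix protein, with 32.7 and 78.8 normalised counts in KO EB8 and 1256 and 1257 in WT EB5 (-4.60, SE 0.80, adjusted p = 0.00605), and Foxa2, a forkhead factor of floor plate and endoderm, with 40.1 and 38.3 in KO EB8 and 293 and 352 in WT EB5 (-3.00, SE 0.72, adjusted p = 0.0242). The hedgehog receptor gene Ptch1 had 3741 and 3297 in KO EB8 and 5080.4 and 3754 in WT EB5 (-0.31, 95% interval -0.71 to 0.08, adjusted p = 0.295). Of 18 endoderm genes Sox17, Foxa2 and Cubn were lower (-3.14, -3.00 and -2.86) and 1 higher, 22.2% called. Gc, a plasma protein gene, was the member higher, with 61.2 and 78.8 in KO EB8 and 0 and 3.3 in WT EB5, at least 22.9-fold higher, and 100.1 and 156 in WT ES. Spon1 and Gc stayed past the threshold when any of the 4 libraries was left out, and Foxa2, Sox17 and Cubn did not. The summed endoderm level was 7431 and 9182 in KO EB8 and 11994 and 18871 in WT EB5.

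In the smaller and more mixed lists few genes passed. Of 13 trophoblast genes, Elf5, Eomes and 1600029D21Rik were higher (2.94, 1.86 and 2.31) and Fgfr2 lower (-1.53), 30.8% against 9.59% of all genes, with a median of 1.84. Krt7, a keratin, had 2813 and 469 in KO EB8 replicates 1 and 2 (adjusted p = 0.0539) and Hand1, a trophoblast and mesoderm factor on chromosome 11, 600.3 and 29.8 (adjusted p = 0.182). Of 17 epithelial genes, Cldn4, Grhl3 and Elf3 were higher (1.40, 1.5 and 1.92), 17.6% with a median of 0.00, and of 8 genes of the mesenchymal switch Vim was higher (1.07) and Zeb2, which represses E-cadherin, lower (-2.14), 25% of the list. In the lists that follow the share called was near or below the 9.59% of all genes, or rested on 2 genes. Of 14 streak and mesoderm genes Eomes was higher and Foxc1 lower (-2.51, 14.3% called), of 11 crest genes Pax3 was lower (9.09%), and of 12 Wnt targets Notum, on chromosome 11, was higher (2.92, 8.33%). Among 10 TGF-beta and YAP-type targets Cnn1 was lower (-3.02, 10% of the list, lost with edgeR), and of 16 p53 targets Cdkn1a, the cell cycle inhibitor p21, was higher (3945 and 3736 against 1526 and 1814, 1.21, adjusted p = 0.0231, 6.25% of the list). None of the genes in these 8 lists stayed past the threshold when each of the 4 libraries was left out in turn.

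Markers of cells that are not of the neural path were present in all 4 libraries. The 10 feeder fibroblast genes summed to 1487 and 3794 normalised counts in KO EB8 and 2820.2 and 1719.7 in WT EB5, so that the groups overlapped, and of the 7 tested Dcn, a matrix proteoglycan, was lower (-3.16, adjusted p = 0.0257, 14.3% of the list). The 9 blood and endothelium genes summed to 2853 and 2769 in KO EB8 and 881 and 675 in WT EB5, with 3 of 9 genes at 3 reads or fewer in each KO EB8 library. This sum was 2344 and 2283 in KO ES and 1737 and 7055 in WT ES, so that its level was not particular to KO EB8. Of 6 tested, Cdh5, Tie1 and Tek, which mark endothelium, were higher (2.58, 3.27 and 1.11), 50% against 9.59% of all genes. Of these 3 calls 2 stayed without KO EB8 replicate 1, and none without either WT EB5 library, without KO EB8 replicate 2 or in a fit of the 4 libraries alone. Cdh5, on chromosome 8, had 140.3 and 546 in KO EB8, 37.6 and 54.9 in WT EB5, against 262 and 237 in WT EB8. The part of such cells in the differences above was not tested.

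Genes of the 2-cell-stage type were high in KO EB8 replicate 2. This programme, of which the Zscan4 cluster is best known, flares up in a small share of ES cells at any time. The 11 genes of the list summed to 306.0 normalised counts in KO EB8 replicate 1 and 2788 in replicate 2, and to 43.3 and 26.4 in WT EB5. Zscan4c had 39.0 and 467 in KO EB8 and 1.9 and 1.1 in WT EB5, at the floor in both WT EB5 libraries and at least 82.7-fold higher (adjusted p = 0.0312, lost with edgeR), and Zscan4b was at least 40.5-fold higher (adjusted p = 0.0172), while the other 6 tested members did not pass, 25% called against 9.59% of all genes. Members of the cluster are near-identical copies, between which short single reads can be divided wrongly. Without KO EB8 replicate 2, neither gene passed, and neither passed without WT EB5 replicate 2.

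Of 18 tested TFIID subunit genes, 2 were higher and 1 lower, 16.7% against 9.59%, with a median of 0.28. Taf12 and Taf7 were higher (0.79 and 0.89, adjusted p = 0.028 and 0.043) and Taf8 lower (-0.62, adjusted p = 0.0381). The paralogue Taf4b had 832 and 916 normalised counts in KO EB8 and 612 and 847 in WT EB5, which overlap (0.28, 95% interval -0.20 to 0.76, adjusted p = 0.453), and it was 1.10 above WT EB8 (adjusted p = 0.004). None of Taf7, Taf8 and Taf12 passed without WT EB5 replicate 1 or 2 or KO EB8 replicate 2, and 1 of them passed without KO EB8 replicate 1.

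The 10 largest falls on the log2 scale, among called genes whose groups do not overlap, included Dbx1, Foxe3, 1700011H14Rik, Glra2, Gm17519, Foxd4, Foxb1, Car10 (on chromosome 11) and Hes3. Foxe3, a forkhead factor known from the lens, was at 0 in both KO EB8 libraries and had 97.9 and 559 normalised counts in WT EB5, at least 103-fold lower (adjusted p = 0.00446). Foxd4, a forkhead factor of early neural ectoderm, had 1.1 and 2.1 in KO EB8, 190.1 and 174 in WT EB5, against 3.2 and 4.2 in WT EB8, low in the later WT stage too. Glra2, a glycine receptor subunit on chromosome X, had 0 and 10.7 in KO EB8, 258 and 383 in WT EB5, against 6.3 and 34.9 in WT EB8. Of the 10, 7 stayed past the threshold when any of the 4 libraries was left out, and Glra2, Car10 and Hes3 did not.

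The 10 largest rises, by the same rule, were Gm13078, Gm16088, BC080695, Tmem92, Zscan4-ps2, 0610040B09Rik, Gm3395, Gm14300, Gm13119 and BB287469, with Tmem92 on chromosome 11, Gm3395 on Y and, by annotation, pseudogenes in Gm14300 and Gm16088. In 9 of them KO EB8 replicate 2 had the higher level, as with Gm13078 (99.2 and 773 in KO EB8 and 0.9 and 0 in WT EB5) and BB287469 (50.6 and 439 in KO EB8 and 2.8 and 0 in WT EB5). Several belong to multicopy families, for which the division of reads is uncertain. The exception was 0610040B09Rik, an antisense-strand transcript in the Hoxb cluster on chromosome 11, with 1355 and 606 in KO EB8, 3.8 and 17.6 in WT EB5, against 1368 and 1939.7 in WT EB8. It overlaps Hoxb5 and Hoxb6, and without strand its reads cannot be told from theirs. Without KO EB8 replicate 2, 1 of the 10 stayed past the threshold, and without WT EB5 replicate 1, WT EB5 replicate 2 and KO EB8 replicate 1 it was 4, 5 and 8.

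A gene late in its course would lie within the range of the WT course, of which only 4 stages were sampled. A level that WT cells pass through between these stages would not be seen, so that the test cannot decide on lateness. To find genes beyond the sampled stages, KO EB8 was tested against WT ES, EB4, EB5 and EB8 together. The largest of the 4 p-values was taken where KO EB8 lay on the same side of all 4 means. This test called 16 genes (0.0992%), 2 above the WT course (0.0124%) and 14 below it (0.0868%), and an unadjusted p below 0.05 was found for 741 genes. By size alone, 355 genes lay above and 271 below all 4 WT means by at least 1 on the log2 scale. No member of the 22 lists was among the 16 genes.

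Ecm1, which encodes a secreted extracellular matrix protein (chr3:95538070-95543492, minus strand, build mm9), lay farthest above. It had 4669 and 7937 normalised counts in KO EB8, 231 and 265 in WT ES, 42.7 and 93.3 in EB4, 103 and 86.8 in EB5 and 463 and 623 in EB8, and 79.6 and 183 in KO EB5. Both KO EB8 libraries were thus above the other 14 libraries. The difference from WT EB5 was 6.00 (SE 0.46, adjusted p = 0.000195), the mean was 11.6-fold the highest WT mean, and the distance to the closest WT stage was 3.50 on the log2 scale (adjusted p = 0.0123 over the course). Gtf2a1 (chr12:92794356-92828927, minus strand) encodes the large subunit of TFIIA, which binds the TATA-binding protein next to TFIID. It had 4545 and 5035 in KO EB8 and 1798 and 2420.3 in WT EB5, and all 8 KO libraries, from 2759.5 in KO ES upward, were above all 8 WT libraries, of which the highest had 2420.3. Its distance was 1.15 (adjusted p = 0.0468).

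Below the WT course, Galnt9, a glycosyltransferase of O-linked glycans (chr5:110973364-111050401, plus strand), had 1.1 and 2.1 normalised counts in KO EB8, 51.8 and 75.8 in WT EB5, against 71.4 and 68.8 in WT EB8. Both KO EB8 libraries were at the floor of 3 reads, at least 20-fold below the lowest WT stage mean (adjusted p = 0.00268). Fgf15, a growth factor of the neural tube (chr7:152082437-152086858, plus strand), had 1.1 and 6.4 in KO EB8, 135 and 126 in WT EB5, against 106 and 91.1 in WT EB8 (26.5-fold below the lowest WT mean, adjusted p = 0.0123). Jph4, a junctophilin that ties the plasma membrane to the endoplasmic reticulum in neurons (chr14:55725667-55735772, minus strand), had 15.8 and 12.8 in KO EB8, 329 and 265 in WT EB5, against 111 and 102 in WT EB8 (7.44-fold below, adjusted p = 0.0123).

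Fam57b, a gene of sphingolipid metabolism, had 13.7 and 7.5 normalised counts in KO EB8 and 464 and 215 in WT EB5 (12.4-fold below the lowest WT mean, adjusted p = 0.0171). Crmp1, a collapsin response mediator of axon guidance, had 199 and 345 in KO EB8 and 1747 and 1637 in WT EB5 (6.22-fold below, adjusted p = 0.0269). Celsr3, an atypical cadherin of axon tracts, had 178 and 88.4 in KO EB8 and 916 and 827 in WT EB5 (4.83-fold below, adjusted p = 0.0123). In each of these all WT libraries lay above both KO EB8 libraries, and the KO values at EB4 and EB5 already lay below those of WT. Usp44, a deubiquitinase, had 86.5 and 101 in KO EB8 and 879.8 and 764 in WT EB5 (adjusted p = 0.0123), Ppp1r1a, a phosphatase inhibitor, 77.0 and 55.4 in KO EB8 and 486 and 361 in WT EB5 (adjusted p = 0.0123), and Slc6a15, an amino acid transporter, 88.6 and 139.5 in KO EB8 and 766 and 1423 in WT EB5 (adjusted p = 0.0402).

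The other genes below included Rtn2, a reticulon (4.47-fold below the lowest WT mean), Tub, the tubby protein gene (2.64-fold), Tkt, transketolase of the pentose phosphate pathway (2.09-fold), and the noncoding 2700023E23Rik (4.84-fold). For all 14 genes the KO EB8 libraries lay below the other 14 libraries. The KO libraries lay below those of WT at the same stage for 6 of the 14 in ES cells, for 13 at EB4 and for 14 at EB5. None of the 16 genes is on chromosome X, Y, 8 or 11. Galnt9 was the gene called with each of the 10 WT and KO EB8 libraries left out, and the number of genes called fell to 6 and rose to 20 without WT ES replicates 1 and 2, was 9 without either WT EB4 library, 6 and 11 without WT EB5 replicates 1 and 2, 4 and 2 without those of WT EB8 and 4 and 2 without those of KO EB8. With edgeR 9 genes were called, all among the 16, and with DESeq2 174, including the 16.

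**Figure D5:**
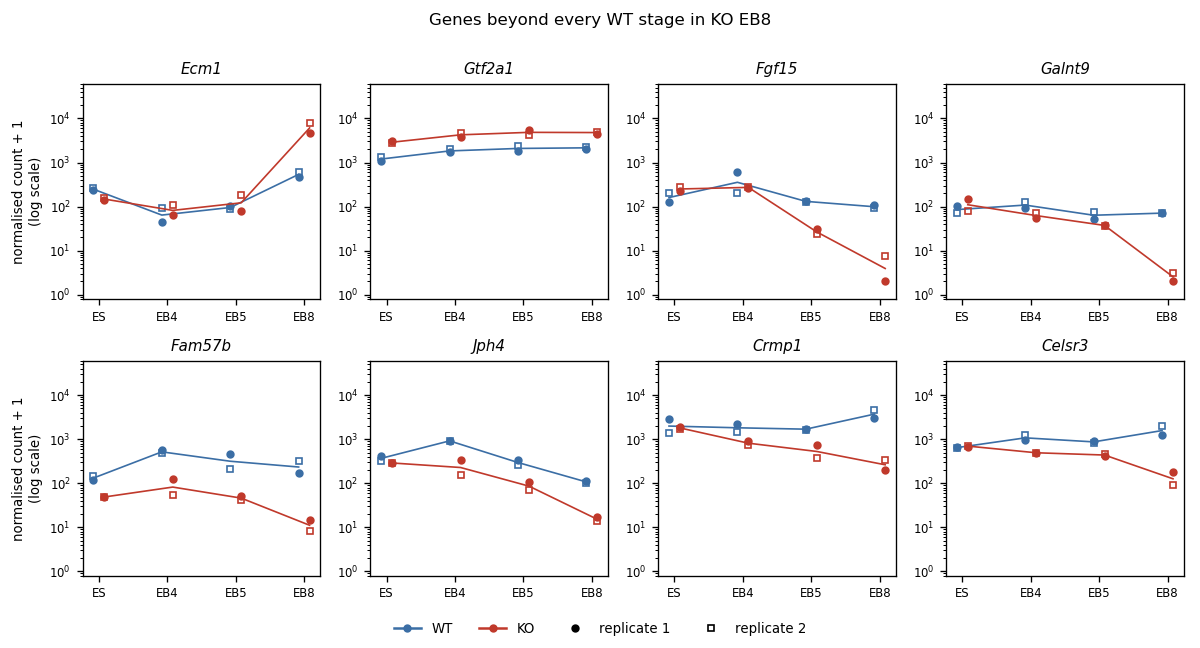
Normalised counts plus 1, on a log axis, of 8 genes called beyond the WT course in every library by stage (WT blue, KO red, replicate 1 filled, replicate 2 open, lines through the geometric means). Ecm1 in KO EB8 (4669 and 7937) exceeded every other library, Gtf2a1 was higher in all KO libraries, and the other 6 genes fell below all WT libraries in KO EB8.

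As TFIID acts at core promoters, the promoters of genes that moved were read for a TATA box (TATAAA) and for a GC box (GGGCGG), both searched on both strands. The motifs do not overlap each other. RefSeq promoter windows of build GRCm38.p6, from 250 bases before to 50 after the start, were matched by symbol for 10737 of 16082 tested symbols, 453 of 680 higher and 596 of 866 lower. Of the matched symbols 9.11% held TATAAA in a window and 67.9% GGGCGG, against 12.8% and 60.3% of the higher and 9.40% and 71.0% of the lower genes. TATAAA on the sense strand within the stretch from 40 to 20 bases before the start was found for 1.48% of all, 24 of 453 higher (5.30%) and 5 of 596 lower genes (0.839%). The match is a description of these letters, given without a test.

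The last 100 bases before the start are shown for 6 genes with a single window, namely Ecm1 above the WT course, Jph4, Celsr3, Rtn2 and Tkt below it and Dbx1 as the largest fall, with TATAAA and GGGCGG, or the reverse complements TTTATA and CCGCCC, in capitals. In a stretch of this length 3.43% of the matched symbols held TATAAA and 51.1% GGGCGG.
Ecm1, chr3:95739570-95739669, minus strand: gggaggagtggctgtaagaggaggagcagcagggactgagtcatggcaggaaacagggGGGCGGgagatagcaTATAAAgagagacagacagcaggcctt
Dbx1, chr7:49636836-49636935, minus strand: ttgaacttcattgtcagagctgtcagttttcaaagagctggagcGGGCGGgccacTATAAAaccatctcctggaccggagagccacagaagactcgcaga
Jph4, chr14:55116936-55117035, minus strand: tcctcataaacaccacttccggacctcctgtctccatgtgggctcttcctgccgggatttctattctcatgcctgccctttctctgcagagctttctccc
Celsr3, chr9:108825945-108826044, plus strand: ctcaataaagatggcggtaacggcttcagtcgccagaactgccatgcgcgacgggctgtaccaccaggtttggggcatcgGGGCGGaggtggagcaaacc
Rtn2, chr7:19282524-19282623, plus strand: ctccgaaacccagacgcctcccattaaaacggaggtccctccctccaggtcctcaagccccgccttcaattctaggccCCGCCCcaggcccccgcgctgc
Tkt, chr14:30549031-30549130, plus strand: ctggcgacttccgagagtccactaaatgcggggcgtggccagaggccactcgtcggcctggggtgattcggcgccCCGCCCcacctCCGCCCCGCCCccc
TATAAA began 27 bases before the start in Ecm1 and 45 bases before it in Dbx1, the first gene higher and the other lower in KO EB8. Celsr3 and Rtn2 had 1 GC box each, at 20 and 22 bases before the start, Tkt had 3, the last pair sharing a base, and the Jph4 stretch held neither motif.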

How the data were processed

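Poly-A RNA of 16 libraries was sequenced as single reads, and the submitters' processing notes name CASAVA 1.7 and 1.8, TopHat2 2.0.10, HTSeq 0.5.4p3, DESeq2 1.0.19 and build mm9. Which annotation release was counted, and whether by strand, is not given in the sources used here. The authors deposited a normalised signal per gene, reads divided by a size factor for each library. Whole reads were recovered from it for 100% of values, within 0.01 read, and gave a depth of 22442118 to 40711826 reads in genes per library. Intervals of log2 differences cover the spread between the libraries of a group, as the limma p-values do. Floors on counts cover counting error only.

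Groups were taken from the labels. Genes with a mean of at least 10 over all libraries were tested with limma 3.58.1 (R 4.3.3) on log2(normalised count + 1), with 8 group means over the 16 libraries, 8 residual degrees of freedom, a trended prior and Benjamini-Hochberg adjustment over all 16124 genes at 0.05. Log2 differences are on this scale and understate the change of low genes. A gene counted as beyond the WT course by the largest of 4 two-sided p-values, adjusted likewise. A gene at 3 reads or fewer in a group was given a bound at that floor, per library. Alternatives included edgeR 4.0.16 and DESeq2 1.42.0 on the whole reads. The scripts were tested on simulated data. Positions of genes are those of a GENCODE annotation of mm9, in which 27603 of the 27807 identifiers were found.

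The comparison, the gene lists and the tests were chosen with earlier results of these data known. Genes named were members of the lists, the 10 largest rises and falls among genes past the threshold whose groups do not overlap, the 8 farthest beyond the WT course on each side, and Taf4a and Taf4b, and the other 6 genes below the course were added after their values were seen. Lists were described by counts and medians, with no test of the list. Results for some genes are not reported here.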

Additional observations from a re-analysis of the deposited data

How the results depend on the processing

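The 1547 genes that differed between KO EB8 and WT EB5 became 1931 with the replicate block, 1401 with edgeR (1369 shared), 1378 and 1681 with pseudocounts of 0.1 and 5, 1396 without a filter and 1352 with a mean of at least 50. DESeq2 called 1231 higher and 1423 lower, a fit of the 4 libraries alone 283 and 409, and an adjusted p below 0.01 left 131 and 250. Leaving out 1 of the 4 libraries gave 199 to 213 higher and 289 to 383 lower genes, by construction with fewer samples. Upper-quartile rescaling, which gave 833 higher and 779 lower genes, and quantile normalisation, with 919 and 916, turned the balance between the directions, and the cause was not tested.

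Beyond the WT course, where 2 genes lay above and 14 below, 1 lay above with a pseudocount of 0.1, 9 with 5, 9 without a filter, 4 above and 23 below with quantile normalisation, 1 and 8 with edgeR, 53 and 121 with DESeq2, 55 and 106 when WT ES was not part of the course, and 0 and 1 at 0.01. Leaving out a library gave 0 to 5 above and 2 to 15 below. The share of genes nearest to WT ES was 26.9% with a span of at least 1, 27.8% with a pseudocount of 5 and 29.5 to 31.1% for single KO EB8 libraries, that nearest to WT EB4 23.0% with a pseudocount of 5 and 21.0 to 21.4% for single libraries, and that nearest to WT EB8 22.9% with a span of 1.

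Of 500 values of 125 named genes without 1 of the 4 libraries, 302 kept direction and side of the threshold, 193 lost the call, 2 gained it and 3 changed sign, none of them called. These were Pou5f1 without WT EB5 replicate 2 (-0.28, with a range from there to 0.83 without a library) and Cyp26a1 without WT EB5 replicate 1 (-0.20) and without KO EB8 replicate 1 (-0.40, with a range from there to 0.53). Of 1720 values under the other alternatives 1613 kept both.

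The replicate numbers are not stated to mark a shared culture, and the deviations of same-numbered KO EB8 and WT EB5 libraries had a correlation of -0.03. With the replicate block 872 higher and 1059 lower genes were called, all 1547 among them, and 5 above and 21 below the WT course. Since the correlation with WT EB8 was -0.13, the KO numbers were also exchanged, a choice made after seeing the data, which gave 882 and 1036 genes and 2 and 15 beyond the course. Within a genotype the numbers did deviate together, with correlations of 0.24, 0.37 and 0.23 between KO EB8 and KO ES, EB4 and EB5, and of 0.61 and 0.57 between WT EB5 and WT EB4 and EB8 but -0.18 with WT ES, so that libraries of a genotype and number are not fully independent. Also added after seeing the data, a replicate block within genotype, which takes the difference between numbers out of the error, gave 1227 higher and 1431 lower genes and 6 above and 31 below the course. Entered as a correlation between libraries (0.17), it gave 721 and 897 genes (1505 of the 1547 among them) and 2 and 14 beyond the course (15 of the 16 among them, without Tub at an adjusted p of 0.0507 by limma), and Sox17, Cubn and Tie1 lost their calls.

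With 2 libraries a group, a difference of single genes had wide intervals, and genes at 3 reads or fewer were given as bounds.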
